A study of Drosophila melanogaster with 18 samples.

Results

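The 71 genes described here encode proteins of the mitochondrial ribosome in Drosophila melanogaster. They were chosen by name, as every gene whose FlyBase symbol begins with mRpL or mRpS and a number, and make up 71 of the 17559 gene IDs in the deposited count files. By symbol, 47 belong to the large (mRpL) and 24 to the small (mRpS) ribosomal subunit, all 71 are annotated as protein coding, and they are spread over the X (11 genes), 2L (12), 2R (12), 3L (15) and 3R (21) chromosome arms. The symbols keep older assignments, since in mammalian mitochondria the relatives of mRpS30 and mRpS18A sit in the large subunit. The genes were measured by RNA-seq of polyadenylated RNA in S2R+ cells, an established line of embryonic origin with features of fly blood cells, in 6 groups of 3 libraries. At passages 8 to 10 every culture was given 10 µg of double-stranded RNA, which lowers a matching transcript by RNA interference, and the treatment was made 3 times within 6 days. The control double-stranded RNA targeted LacZ, a bacterial gene, and the knockdowns are named Ime4_dMettl14 (both targets in the same cells), Fl2d, Vir, Nito and CG7358 (annotated as Flacc). All of these proteins belong to the complex that writes N6-methyladenosine (m6A) on messenger RNA.

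The mitochondrial ribosome translates the few messenger RNAs of the mitochondrial genome, which encode core subunits of the respiratory chain and the ATP synthase. Its ribosomal RNAs are transcribed inside the organelle, whereas its proteins are encoded in the nucleus, made by cytosolic ribosomes and imported. Many of the proteins have bacterial relatives and carry their numbers. Others, mostly with higher numbers, are additions of mitochondria and were named in animals.

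The libraries held 15743484 to 18100792 counts, and 8146 genes were abundant enough to be tested. The targeted transcripts were at 10.5% to 29.6% of their control means in the group treated against them, and each such group lay wholly below the controls. Of 11 hemocyte markers, 8 had a median above 10 counts scaled to library size (CPM), while NimC1 was lowest at a median of 0.316 CPM. Each of 3 muscle and 3 fat body markers had a median under 1 CPM. Markers of other tissues were not all silent: the germline markers aub and bam had medians of 206 and 16.2 CPM. The neuron marker elav had a median of 24.0 CPM, while the 4 other neuron markers were under 1 CPM. Whether the 3 libraries of a group derive from separate cultures is not stated in the labels, and the p-values therefore describe a spread that could be technical. No target was restored after knockdown, so loss of the target and other effects of its double-stranded RNA cannot be told apart.

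In control cells 70 of the 71 genes were expressed. Per exon length, their mean levels ran from 12.6 reads per kilobase at a common library size (RPKM) for mRpL21 to 115 RPKM for mRpL14, a relative of the bacterial protein L14 (115 ± 9.60 RPKM, SD, n = 3). The median over these 70 was 37.2 RPKM. After mRpL14 came mRpL45, known in mammals for its place at the exit of the ribosomal tunnel (87.2 ± 3.30 RPKM), mRpS7 (79.5 ± 5.08 RPKM) and mRpL52 (74.5 ± 3.02 RPKM). The step from mRpL14 to mRpL45 was larger than the sum of their SDs, whereas mRpL45, mRpS7 and mRpL52 were each within that spread of the next gene. At the low end, mRpL13 (15.2 ± 1.67 RPKM) and mRpL11 (15.03 ± 1.13 RPKM) could not be separated, and mRpL21 (12.6 ± 0.820 RPKM) lay below both. The exon length used joins all annotated transcripts of a gene. It was 1696 bases for mRpL21, against 671 for mRpL13 and 734 for mRpL11. Before division by length mRpL21 was higher, at a control mean of 21.3 CPM against 10.2 CPM for mRpL13 and 11.03 CPM for mRpL11.

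**Figure D1:**
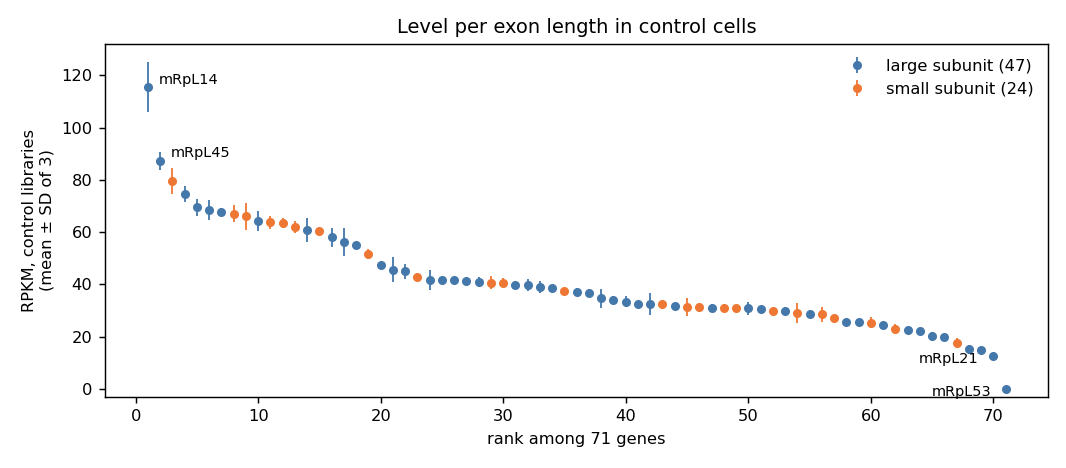
Mean level of each of the 71 genes in the 3 control libraries, in RPKM (y axis, bars show the SD), by rank (x axis), with large subunit genes in blue and small subunit genes in orange. Genes of both subunits are mixed along the range from mRpL14 at 115 RPKM down to mRpL21 at 12.6 RPKM, and mRpL53 is at 0.

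The exception was mRpL53, which had 0 counts in all 18 libraries, where 3 counts would correspond to at most 0.191 CPM. All of its 829 exonic bases are shared with CG33155 on the same strand, and how the counting treated shared bases is not given in the sources used here. It was therefore not tested, and all counts that follow are of the other 70 genes. Of the 71 genes, 41 share some exonic bases with another annotated gene, 40 of them with a gene on the opposite strand and 3 with one on the same strand. The other 30 share none. The sharing was large for mRpS24 (55.3% of its exon length, with TBC1d7), mRpS21 (48.0%, with CG8870), mRpL13 (35.2%, with CG10602 on the same strand) and mRpS14 (32.0%, with Naa15-16), and their values are less certain.

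The control libraries themselves differed slightly in these genes. Summed over the 71 genes, the levels were 2466, 2541 and 2619 CPM in the 3 controls. In Control replicate 1, 50 of the 70 genes lay below their control mean, against 43 in replicate 2 and 15 in replicate 3. The median coefficient of variation of a gene over the controls was 4.78%.

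Nito was the knockdown in which the set was lower. Its summed level was 2235, 2284 and 2193 CPM, below each of the 15 other libraries, and its mean of 2237 ± 45.8 CPM was 88.0% of the control mean of 2542 ± 76.7 CPM (SD, n = 3). The sums of the other knockdowns were 2514 to 2547 CPM in Ime4_dMettl14, 2481 to 2495 in Fl2d, 2590 to 2638 in Vir and 2392 to 2529 CPM in CG7358. In these bulk samples, fewer cells with a transcript and less transcript per cell cannot be told apart. Relative to each gene's control mean, the median log2 ratio over the 70 genes was −0.20, −0.19 and −0.24 in the Nito libraries and between −0.10 and 0.05 in every other library, controls included.

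**Figure D2:**
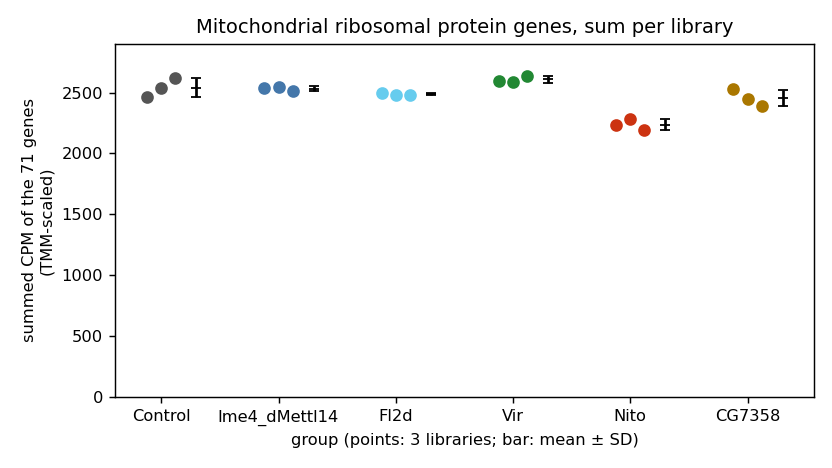
Summed TMM-scaled CPM of the 71 genes (y axis, starting at 0) in each of the 3 libraries of the 6 groups (points), with the group mean ± SD as a bar. The Nito libraries lie between 2193 and 2284 CPM, below all other libraries, of which the lowest is a CG7358 library at 2392 CPM.

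Gene by gene, 50 of the 70 fell in Nito and 3 rose by edgeR's quasi-likelihood test at an adjusted p under 0.05. Over all genes tested, 60.7% were called in this comparison, 30.9% as lower and 29.8% as higher. The median log2 fold change was −0.22 for the 70 genes and 0.00 for all genes tested. In 48 of the 70 all Nito libraries lay below all controls, and in 3 they lay above, against 33.2% and 32.3% of all genes tested. The decreases were small for single genes: 3 of the 70 changed by more than 1.5-fold as an estimate, and the 95% interval of the change stayed within 1.5-fold for 61 genes. Of the 53 calls, 37 held under every alternative processing and with every library left out, and 16 were lost when some 1 library was left out. The number of fallen genes was between 40, without Control replicate 3 or Nito replicate 3, and 51. DESeq2 gave 43 lower and 2 higher.

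Among large subunit genes 35 of 46 fell and 1 rose in Nito, with a median log2 fold change of −0.22. The largest decrease was that of mRpL55, a protein of the animal mitochondrial ribosome with no bacterial counterpart (FBgn0038678, chromosome 3R, 19094394 to 19094905 in BDGP6, minus strand, exons of 456 bases). Its levels were 25.7, 27.7 and 29.9 CPM in the controls and 17.1, 19.1 and 17.1 CPM in Nito. No Nito library came near a control library, and the log2 fold change was −0.64 ± 0.07 SE (edgeR adjusted p = 1.23e-09). The transcript of mRpL15, a relative of bacterial L15 (FBgn0036990, 3L, 20435110 to 20436209, minus strand), was at 22.6, 23.9 and 23.7 CPM in the controls and at 14.9, 15.6 and 15.1 CPM in Nito. Here too the groups were far apart, with a log2 fold change of −0.62 ± 0.07 (edgeR adjusted p = 5.63e-09). For mRpL46, a mitochondrial addition to the large subunit (FBgn0035272, 3L, 1777439 to 1778347, plus strand), the controls had 28.7, 28.2 and 29.3 CPM and the Nito libraries 18.9, 18.5 and 19.3 CPM. Both groups were tight and did not overlap (log2 fold change −0.61 ± 0.07, edgeR adjusted p = 2.25e-09).

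The next large subunit genes were mRpL36 and mRpL33, relatives of small bacterial proteins. The mRpL36 transcript (FBgn0042112, 3L, 8124584 to 8125132, minus strand) was at 17.6, 18.2 and 19.1 CPM in the controls and at 12.6, 11.03 and 13.8 CPM in Nito. The Nito libraries varied more among themselves than for the genes above but all lay below the controls (−0.55 ± 0.08, edgeR adjusted p = 1.03e-06). For mRpL33 (FBgn0040907, X, 4321764 to 4322231, minus strand) the values were 13.2, 15.9 and 14.5 CPM in the controls and 10.6, 11.03 and 9.92 CPM in Nito. That decrease was −0.47 ± 0.09 (edgeR adjusted p = 4.41e-05), again with no overlap. The transcript of mRpL45 (FBgn0263863, 3R, 22618492 to 22619826, plus strand) had 111, 114 and 106 CPM in the controls and 86.3, 87.4 and 84.1 CPM in Nito. The groups were separate, with a log2 fold change of −0.36 ± 0.04 (edgeR adjusted p = 3.00e-09). None of these large subunit genes shares exonic bases with another annotated gene, and all 6 calls held with every library left out. The 1 large subunit gene that rose was mRpL39, related in sequence to threonyl-tRNA synthetases, from 37.2, 37.4 and 36.5 CPM to 42.3, 40.2 and 39.8 CPM. Its groups did not overlap, yet the call (log2 fold change 0.14 ± 0.05, edgeR adjusted p = 0.0278) was lost without any 1 of the controls (adjusted p = 0.0625 to 0.0951) or without Nito replicate 1 (0.151). The mRpL39 call was also lost by DESeq2, without the filter on low counts and with total counts as the only scaling.

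Of the 24 small subunit genes 15 fell and 2 rose in Nito, with a median log2 fold change of −0.21. The largest decrease was that of mRpS21, a relative of bacterial S21 (FBgn0044511, 3R, 13381276 to 13381809, minus strand), from 14.7, 15.2 and 16.3 CPM to 9.90, 11.3 and 10.3 CPM. The groups did not overlap (−0.55 ± 0.09, edgeR adjusted p = 1.72e-06), while 48.0% of its exonic bases lie opposite CG8870, which did not pass the filter on low counts. After it came mRpS33 at −0.47 ± 0.06 (edgeR adjusted p = 2.67e-07) and mRpS24, counterpart of bacterial S3, at −0.46 ± 0.07 (edgeR adjusted p = 6.88e-07). TBC1d7, the gene that overlaps mRpS24, had a log2 fold change of −0.06 ± 0.08 and was not called (edgeR adjusted p = 0.546). Of the other tested neighbours that share over 20% of a member's exonic bases, CG10602 (same strand as mRpL13, −0.23, edgeR adjusted p = 2.21e-06), ArgRS-m (opposite mRpS9, −0.35, edgeR adjusted p = 0.000193) and CG34263 (opposite mRpL17, −1.91, edgeR adjusted p = 3.51e-05) fell in Nito together with their partner. Naa15-16, opposite mRpS14, rose (0.30, edgeR adjusted p = 5.65e-07), and frtz, opposite mRpL48, was not called (0.15, edgeR adjusted p = 0.113). How far reads of neighbours enter the members' counts was not tested. mRpS29, the GTP-binding protein known in mammals as DAP3, fell by 0.23 ± 0.05 on the log2 scale (edgeR adjusted p = 0.000317).

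In the other direction, mRpS6 (a relative of bacterial S6, FBgn0035534, 3L, 4364550 to 4365243, plus strand) rose in Nito. It had 13.2, 15.5 and 14.6 CPM in the controls and 17.1, 17.6 and 18.4 CPM in Nito. Every Nito library was above every control (log2 fold change 0.30 ± 0.07, edgeR adjusted p = 0.000718), and the call held with each library left out. mRpS16 rose as well, from 33.5, 35.6 and 39.0 CPM to 39.2, 40.5 and 41.1 CPM. Its lowest Nito library was barely above the highest control (0.16 ± 0.05, edgeR adjusted p = 0.00704), and without Control replicate 1 the adjusted p was 0.122.

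**Figure D3:**
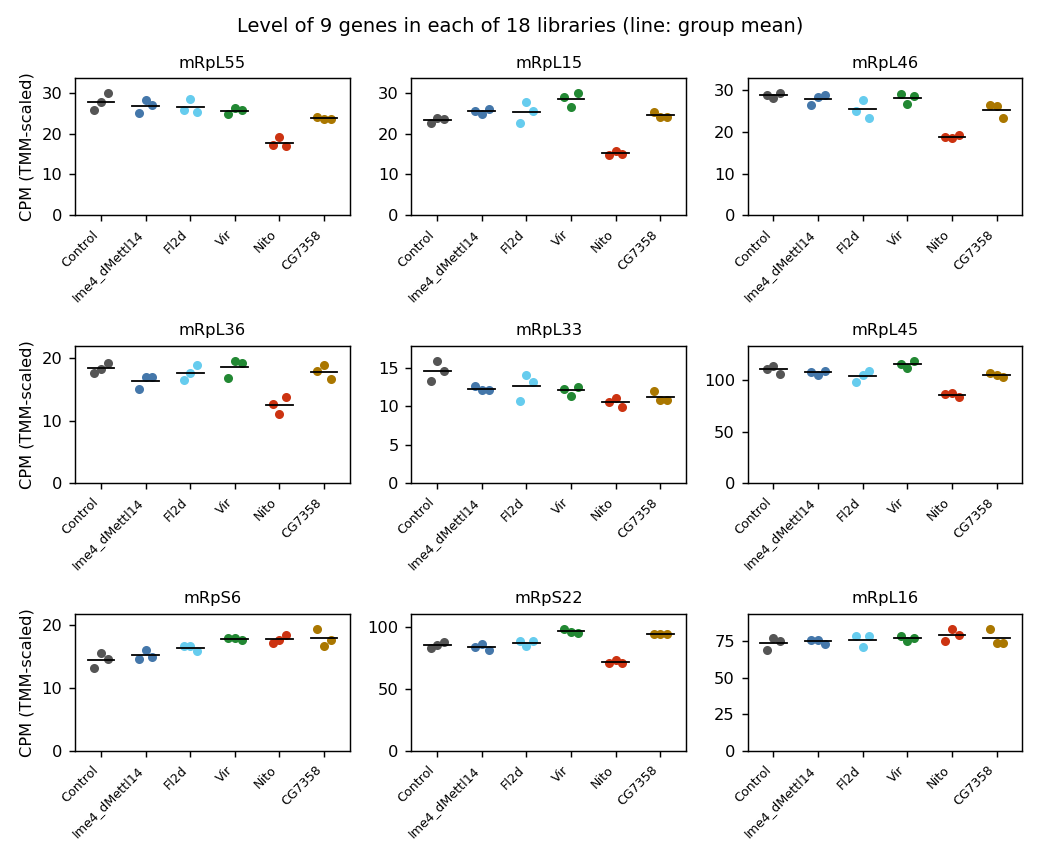
TMM-scaled CPM (y axes, starting at 0) of 9 genes in each of the 18 libraries, by group, with a line at the group mean. In 7 of the 9 genes Nito has the lowest group mean, for example mRpL15 at 14.9 to 15.6 CPM. mRpS6 lies above all controls in Fl2d, Vir, Nito and CG7358, of which Fl2d was not called, and mRpL16 overlaps in all groups.

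Genes that fell in Nito were found in each subset set apart by name, length or position, and differences between subsets were not tested. Of the genes numbered as in bacteria (up to L36 and S21) 30 of 41 fell, and of those with higher numbers 20 of 29. Among the 30 genes that share no exonic bases with another gene, 19 fell and 1 rose, with a median log2 fold change of −0.19. The median was lower in short genes: with exons under 600 bases the median was −0.34 (8 of 12 fell), against −0.21 at 600 to 1000 bases (26 of 37) and −0.20 above 1000 bases (16 of 21). All tested protein-coding genes under 600 bases also had a median below 0, at −0.14, with 42.9% lower, against −0.08 and 37.9% at 600 to 1000 bases and 0.01 and 30.9% above. Over the 70 genes, log2 fold change and exon length had a Pearson r of 0.21 and a Spearman rho of 0.10, and average log2 CPM gave 0.20 and 0.15. These genes share the same libraries and normalization. What length contributes to the result was not tested.

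By chromosome, 5 of the 11 X-linked members fell in Nito, with a median log2 fold change of −0.03, against 45 of the 59 tested members on autosomes, with a median of −0.23. Over all tested genes, the values were a median of 0.15 and 18.1% lower on the X and a median of −0.03 and 33.7% lower on autosomes. X-linked members that did not pass the test included mRpL14 (0.08 ± 0.05) and mRpS30 (−0.03 ± 0.04), while X-linked mRpL33 fell as described above. The part of chromosome position in these values was not tested. Marker levels in Nito also differed from those of the controls. The 11 hemocyte markers summed to 1547 to 1561 CPM, against 1798 to 1816 CPM in the controls and 1829 to 2043 CPM in the other knockdowns. The 3 muscle markers, at low levels throughout, summed to 1.21 to 1.48 CPM against 0.343 to 0.687 CPM in the controls. The 2 matched germline markers summed to 194 to 197 CPM against 224 to 242 CPM in the controls, 5 neuron markers to 31.1 to 39.6 against 25.3 to 28.6 CPM, and 2 ovarian follicle markers to 5.35 to 6.25 against 4.47 to 4.57 CPM. Not all of this was particular to Nito. Neuron sums in Fl2d were 28.0 to 36.5 CPM, and germline sums in CG7358 were 204 to 207 CPM, also below the controls. In Nito the 2 matched crystal cell markers (2.56 to 3.45 CPM) and 3 fat body markers (0.398 to 0.486 CPM) overlapped Vir (2.95 to 4.76 and 0.128 to 0.445 CPM). No hemocyte marker was at 0 in any library. The part of these marker levels in the result was not tested.

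Nito was also compared with the mean of the other 4 knockdowns, which leaves the shared controls out. Of the 70 genes 54 were lower and 3 were higher, against 64.7% of all genes tested called in either direction, 32.5% lower and 32.3% higher. The median log2 difference was again −0.22. Lower calls in both comparisons were made for 49 genes, while 1 was lower only against the control and 5 only against the other knockdowns. Both comparisons use the same Nito libraries, so these calls are not independent. Calls shared by both were not counted over all genes tested. The smallest p was that of mRpL15 (log2 difference −0.76 ± 0.06, edgeR adjusted p = 2.79e-13), followed by mRpS22 (−0.33 ± 0.03, edgeR adjusted p = 3.36e-11) and mRpL45 (−0.33 ± 0.03, edgeR adjusted p = 1.65e-10). By size, mRpL15 was followed by mRpL55 (−0.53 ± 0.06, edgeR adjusted p = 8.22e-10) and mRpL46 (−0.50 ± 0.05, edgeR adjusted p = 1.47e-09). The genes higher in Nito than in the other knockdowns were mRpL14 (0.11 ± 0.04, edgeR adjusted p = 0.00986), mRpL38 (0.11 ± 0.04, edgeR adjusted p = 0.0219) and mRpS30 (0.07 ± 0.03, edgeR adjusted p = 0.0303), none of which was called as higher or lower in Nito against the control. The call of mRpS30 was lost in 12 of the 18 fits that left out 1 library (adjusted p up to 0.176), by DESeq2 and without the filter on low counts, that of mRpL38 without Ime4_dMettl14 replicate 3 or Nito replicate 2 and without that filter, and that of mRpL14 without Nito replicate 1. mRpS6 and mRpS16, which rose against the control, did not pass here (0.08 ± 0.06 and 0.04 ± 0.04). The count of higher genes was 1 without Ime4_dMettl14 replicate 3, without Nito replicate 1 or without Nito replicate 2, and the count of lower genes was 42 without Nito replicate 3.

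**Figure D4:**
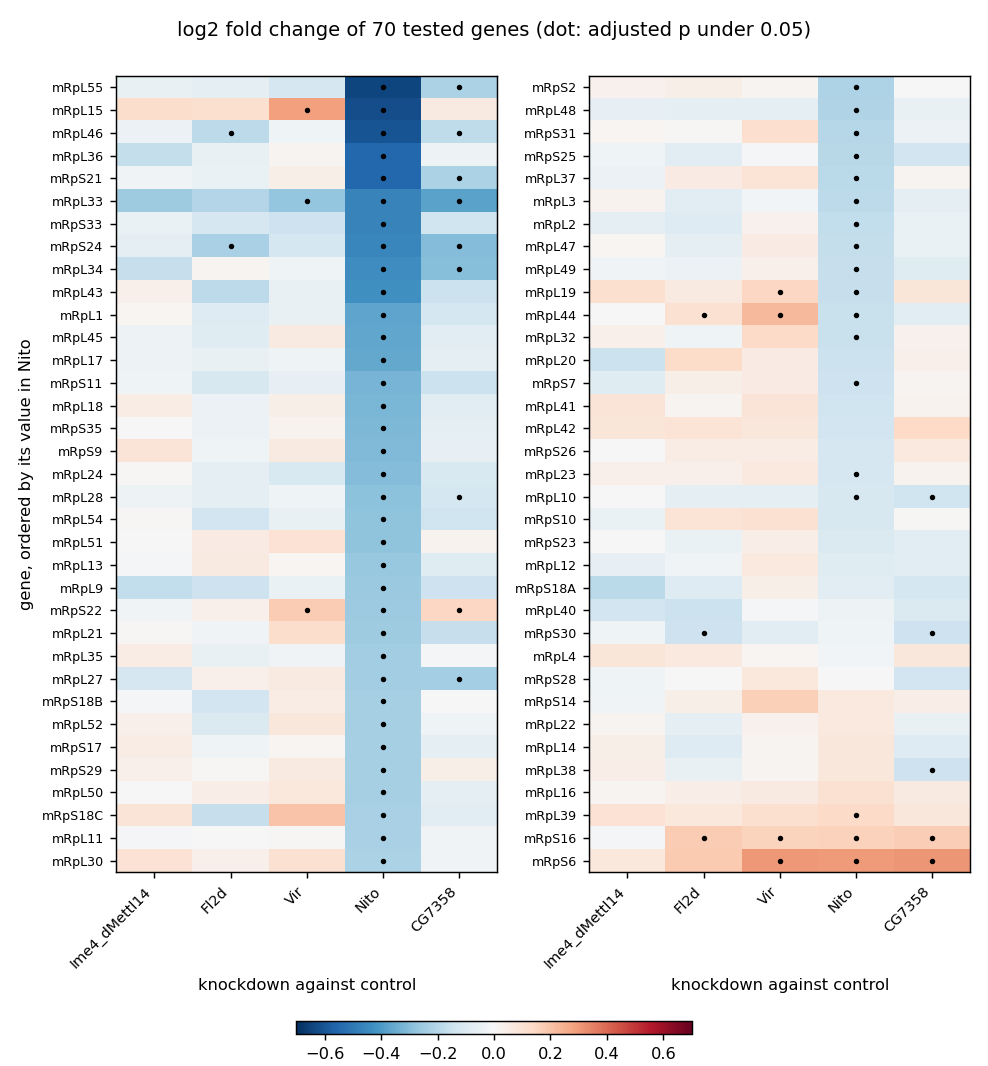
Log2 fold change of each of the 70 tested genes (rows, ordered by the value in Nito) in each knockdown against the control (columns), in color from blue (lower) to red (higher), with a dot where edgeR's adjusted p was under 0.05. The Nito column holds 50 lower and 3 higher calls, from mRpL55 at −0.64 to mRpS6 at 0.30, and the Ime4_dMettl14 column holds none.

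The Ime4_dMettl14 knockdown, in which the methyltransferase pair itself was targeted, changed none of the 70 genes past the threshold. By edgeR 0 were called, against 5.63% of all genes tested (3.01% higher, 2.63% lower), with 4 at an unadjusted p under 0.05, and DESeq2 also called 0. The median log2 fold change was −0.00 and the single values ran from −0.25 for mRpL33 to 0.12 for mRpL15. The 95% intervals of all 70 changes lay within 1.5-fold. The smallest adjusted p belonged to mRpL9 (−0.17 ± 0.06, edgeR adjusted p = 0.0825). For mRpL33 the levels were 12.6, 12.1 and 12.04 CPM, all below the controls at 13.2 to 15.9 CPM, with edgeR adjusted p = 0.0990. In 8 of the 70 all knockdown libraries lay below all controls and in 4 above, against 12.4% and 12% of all genes tested.

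Set against the mean of Fl2d, Vir and CG7358, without the controls, Ime4_dMettl14 had 6 higher and 7 lower genes of the 70, against 34.3% of all genes tested called, 17.1% higher and 17.2% lower. With total counts as the only scaling the split was 19 higher and 2 lower, and over all genes it went from 1390 higher and 1401 lower to 2386 and 870. The genes with the smallest p were all small subunit genes lower in Ime4_dMettl14: mRpS22 (−0.15 ± 0.03, edgeR adjusted p = 0.000400), mRpS16 (−0.18 ± 0.04, edgeR adjusted p = 0.00104) and mRpS7 (−0.12 ± 0.04, edgeR adjusted p = 0.00740). mRpS24 was higher (0.16 ± 0.05, edgeR adjusted p = 0.0226). Its call was lost by DESeq2 and without Ime4_dMettl14 replicate 2 or 3 (edgeR adjusted p = 0.0736 and 0.107). That of mRpS7 was lost with total counts as the only scaling and without Ime4_dMettl14 replicate 2 (edgeR adjusted p = 0.104). Of the 13 calls, 2 held under every setting and with every library left out, those of mRpS22 and mRpS16. Without Ime4_dMettl14 replicate 1 the counts were 3 higher and 3 lower, without its replicate 2 they were 2 and 3, and without its replicate 3 the lower count was 3. By DESeq2 1 gene was higher.

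In Fl2d 2 of the 70 genes rose and 3 fell, a share well under the 32% of all genes tested that were called (16% in each direction). All Fl2d libraries lay below all controls in 7 genes and above them in 8, against 21.3% and 20.7% of all genes tested. The median log2 fold change was −0.04. With scaling by total counts alone 1 rose and 15 fell, and over all genes the split went from 1306 higher and 1304 lower to 892 and 2051. Fallen were mRpS30 (FBgn0030692, X, 15786047 to 15788288, plus strand), at 115, 115 and 120 CPM against 125, 127 and 134 CPM in the controls, mRpS24 and mRpL46. The mRpS30 groups were separate (−0.14 ± 0.04, edgeR adjusted p = 0.00258), as were those of mRpS24, at 18.5, 18.8 and 20.3 CPM against 23.0, 21.9 and 22.6 CPM (−0.23 ± 0.07, edgeR adjusted p = 0.00882). Both held with every library left out. mRpL46 (−0.18 ± 0.06, edgeR adjusted p = 0.0289) was lost without Control replicate 3, Fl2d replicate 1 or Fl2d replicate 3 (adjusted p = 0.0564 to 0.150).

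The genes that rose in Fl2d were mRpS16, to 41.4, 39.6 and 41.2 CPM, and mRpL44, a protein with a ribonuclease III-like fold, to 50.5, 48.9 and 51.3 CPM from 46.2, 47.4 and 46.2 CPM. Neither overlapped with its controls. mRpS16 (0.18 ± 0.05, edgeR adjusted p = 0.00769) was lost without Control replicate 1 (adjusted p = 0.113). mRpL44 (0.11 ± 0.04, edgeR adjusted p = 0.0469) was lost whichever 1 of the 18 libraries was left out, up to an adjusted p of 0.192. The number of risen genes was 2 without Control replicate 2 or Fl2d replicate 1, with mRpL44 not among them. It was 0 without Control replicate 1 and 1 without any other library. The number of fallen genes was 9 without Control replicate 1, and 5 without CG7358 replicate 1 or 3, Ime4_dMettl14 replicate 1 or 2, or Vir replicate 1 or 2.

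In Vir 6 of the 70 genes rose and 1 fell, against 34% of all genes tested called, 16.7% higher and 17.3% lower. The Vir libraries lay below all controls in 4 genes and above them in 8, against 22.8% and 21.5% of all genes tested. The median log2 fold change was 0.04, and 49 of the 70 estimates were above 0. Scaling by total counts alone gave a median of −0.01 with 4 risen and 6 fallen, and moved the split over all genes from 1362 higher and 1406 lower to 922 and 2117. The most precise increase was that of mRpL44 (FBgn0037330, 3R, 5469463 to 5470636, minus strand), from 46.2, 47.4 and 46.2 CPM to 53.9, 54.7 and 54.8 CPM (0.22 ± 0.04, edgeR adjusted p = 7.20e-05). mRpS22, a mitochondrial addition to the small subunit (FBgn0039555, 3R, 27916908 to 27918248, plus strand), rose from 82.9, 85.0 and 87.7 CPM to 98.4, 95.8 and 94.6 CPM (0.18 ± 0.04, edgeR adjusted p = 0.000360). In both genes every Vir library was above every control.

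The larger increases in Vir were those of mRpL15 and mRpS6. mRpL15 rose to 29.0, 26.5 and 29.9 CPM from 22.6 to 23.9 CPM in the controls (0.28 ± 0.06, edgeR adjusted p = 0.000785), and mRpS6 to 17.9, 17.9 and 17.6 CPM from 13.2 to 15.5 CPM (0.30 ± 0.07, edgeR adjusted p = 0.00155). These 2 calls and those of mRpL44 and mRpS22 held with every library left out. mRpS16 (0.15 ± 0.05, edgeR adjusted p = 0.0203) was lost without Control replicate 1 or 2 (adjusted p = 0.183 and 0.0677). mRpL19 (0.15 ± 0.06, edgeR adjusted p = 0.0401) was lost without Control replicate 1 or any 1 Vir library (adjusted p = 0.0720 to 0.440). The 1 fallen gene was mRpL33, at 12.3, 11.4 and 12.5 CPM (−0.27 ± 0.09, edgeR adjusted p = 0.0186), and its call was lost without Control replicate 2 or Vir replicate 2 (adjusted p = 0.135 and 0.0764) and by DESeq2.

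In CG7358 3 of the 70 genes rose and 11 fell, against 37.6% of all genes tested called, 18.8% in each direction. In 16 genes all CG7358 libraries lay below all controls and in 5 above, against 23.6% and 23.9% of all genes tested. The median log2 fold change was −0.06. By total counts alone 1 rose and 28 fell, and over all genes the split went from 1532 in each direction to 947 higher and 2375 lower. The number of fallen genes was 4 without Control replicate 3 and 5 without CG7358 replicate 3. Those 2 libraries were the highest of the controls and the lowest of CG7358 in summed level, at 2619 and 2392 CPM. The largest decrease was that of mRpL33, at 12.03, 10.8 and 10.8 CPM against 13.2, 15.9 and 14.5 CPM in the controls (−0.38 ± 0.09, edgeR adjusted p = 0.00130). mRpS24 followed, at 18.2, 19.2 and 17.2 CPM (−0.31 ± 0.07, edgeR adjusted p = 0.000490). Neither gene overlapped with its controls, and both calls held with every library left out, as did that of mRpS30 (−0.14 ± 0.04, edgeR adjusted p = 0.00194).

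Other decreases in CG7358 were less firm. mRpL34, encoded by the shortest gene of the set with 327 exonic bases, had 10.1, 8.91 and 8.07 CPM against 11.6, 10.6 and 11.2 CPM (−0.30 ± 0.09, edgeR adjusted p = 0.0128), and was lost without CG7358 replicate 3 (adjusted p = 0.0860). mRpL55 was at 23.9, 23.6 and 23.6 CPM, under the lowest control at 25.7 CPM (−0.22 ± 0.07, edgeR adjusted p = 0.00722), and was lost without Control replicate 3 (adjusted p = 0.0588). mRpS21 (−0.22 ± 0.08, edgeR adjusted p = 0.0359) and mRpL46 (−0.18 ± 0.06, edgeR adjusted p = 0.0254) were lost without either of these 2 libraries too (adjusted p = 0.0654 to 0.151), and mRpS21 also without Control replicate 2 or CG7358 replicate 2 (adjusted p = 0.0567 and 0.173). The other 4 fallen genes, mRpL27, mRpL28, mRpL10 and mRpL38, fell by 0.12 to 0.24 on the log2 scale, and each was lost without Control replicate 3 and without CG7358 replicate 3. Of the risen genes, mRpS6 had 19.4, 16.7 and 17.6 CPM, all above the controls (0.31 ± 0.07, edgeR adjusted p = 0.00108). mRpS22 was at 94.0, 93.8 and 94.4 CPM, above the highest control at 87.7 CPM (0.14 ± 0.04, edgeR adjusted p = 0.00268), and both held with every library left out, although mRpS22 was not called with total counts as the only scaling. mRpS16 (0.17 ± 0.05, edgeR adjusted p = 0.00823) was lost without Control replicate 1 (adjusted p = 0.114).

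Side by side, the 5 knockdowns share the same 3 controls, so their calls are not independent. Among the 5 values of a gene, the lowest was that of Nito for 57 of the 70 genes, that of Ime4_dMettl14 for 5, of CG7358 for 5, of Fl2d for 3 and of Vir for 0. The lowest value was not counted over all genes tested, of which 30.9% were called lower and 29.8% higher in Nito. In edgeR's F test among the 6 groups 57 of the 70 genes differed, against 76.9% of all genes tested. Against the control, 15 genes were called in no knockdown and 38 were called lower in a single one and higher in none. These patterns, and the shared and opposite calls below, were not counted over all genes tested. Whether they are particular to this set is therefore not shown. No gene was called in the same direction in all 5. mRpS16 came closest, called higher in Fl2d, Vir, Nito and CG7358 with log2 fold changes of 0.15 to 0.18, and in each of these the call was lost without Control replicate 1, in which it was lowest at 33.5 CPM. In Ime4_dMettl14 mRpS16 was at 37.3, 35.1 and 34.6 CPM, overlapping the controls (−0.01 ± 0.05).

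Opposite calls were made for 4 genes. mRpL15 rose in Vir and fell in Nito, with 26.5 to 29.9 CPM against 14.9 to 15.6 CPM, and it had the smallest p of the set in the F test (edgeR adjusted p = 1.79e-11). mRpS22 rose in Vir and CG7358 and fell in Nito to 70.5, 72.8 and 71.1 CPM (−0.25 ± 0.04, edgeR adjusted p = 1.00e-06). mRpL44 rose in Fl2d and Vir and fell in Nito to 41.7, 41.8 and 41.8 CPM, a nearly constant value (−0.16 ± 0.04, edgeR adjusted p = 0.00200). The last, mRpL19, rose in Vir to 53.0, 52.1 and 51.9 CPM and fell in Nito to 41.9, 43.6 and 41.5 CPM (−0.16 ± 0.06, edgeR adjusted p = 0.0142). Its controls spread from 41.6 to 50.8 CPM and overlapped with Nito, and the Nito call was lost without Control replicate 2 or 3 or Nito replicate 3 (adjusted p = 0.0543 to 0.102). Its Vir call was lost without 4 of the libraries, as given above, and also by DESeq2, with total counts as the only scaling and with only the 2 groups compared. At the other end, the largest p in the F test belonged to mRpS14, mRpL4, mRpL16 and mRpS23 (edgeR adjusted p = 0.467, 0.448, 0.443 and 0.276). For mRpL16 the 18 libraries ran from 69.3 to 83.5 CPM and all groups overlapped with the controls.

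Other genes of mitochondrial translation were measured in the same fit. In Nito 11 of 15 genes in a list of mitochondrial aminoacyl-tRNA synthetases, enzymes that charge the tRNAs of the organelle, fell and 0 rose, with a median log2 fold change of −0.30 beside 30.9% lower and a median of 0.00 over all genes tested. The list holds Slimp, a relative of the seryl enzyme that does not charge tRNA, which was among the genes that fell (−0.30 ± 0.09, edgeR adjusted p = 0.00284). Examples of the enzymes are TyrRS-m, from 22.9 ± 1.29 to 16.7 ± 1.03 CPM (SD, n = 3, log2 fold change −0.46 ± 0.07, edgeR adjusted p = 1.92e-06), and SerRS-m, from 30.5 ± 1.40 to 24.0 ± 0.941 CPM (−0.35 ± 0.06, edgeR adjusted p = 4.95e-06). Of 9 translation factors 5 fell and 2 rose. The elongation factor mEFTu1 fell from 203 ± 2.496 to 158 ± 7.03 CPM (−0.36 ± 0.04, edgeR adjusted p = 6.80e-08) and the initiation factor mIF2 from 12.7 ± 1.55 to 9.04 ± 0.381 CPM (−0.49 ± 0.09, edgeR adjusted p = 2.28e-05). The genes that rose were the ribosome recycling factors mRRF1 (0.30 ± 0.10, edgeR adjusted p = 0.0116) and mRRF2 (0.12 ± 0.05, edgeR adjusted p = 0.0495). Both mitochondrial ribosomal protein genes with other names fell: tko, which encodes the S12 protein (−0.13 ± 0.05, edgeR adjusted p = 0.0398), and bonsai, which encodes the S15 protein (−0.14 ± 0.05, edgeR adjusted p = 0.0216).

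Genes of other mitochondrial functions were measured as well in Nito, where 30.9% of all genes tested were called lower and 29.8% higher. Of 9 genes of mitochondrial protein quality control 6 fell and 1 rose, with a median of −0.19. The list holds chaperones and proteases and also Pink1 and park, which are neither. Trap1 (−0.27 ± 0.04, edgeR adjusted p = 7.40e-08) and Roe1 (−0.32 ± 0.05, edgeR adjusted p = 8.43e-07) were among the genes that fell. Of 65 nuclear genes of the respiratory chain and ATP synthase 30 fell and 2 rose, with a median of −0.10. SdhA, the flavoprotein subunit of complex II, had the smallest p, at 285 ± 2.76 CPM in the controls and 219 ± 4.33 CPM in Nito (−0.38 ± 0.03, edgeR adjusted p = 1.86e-12). Of 14 genes of mitochondrial transcription and RNA metabolism 4 fell and 0 rose, a share close to that of all genes tested, including the mitochondrial RNA polymerase PolrMT (−0.20 ± 0.06, edgeR adjusted p = 0.00574). In Fl2d, Vir and CG7358 the numbers of genes called in these lists depended on the scaling. Respiratory chain genes had 4 higher and 7 lower in Fl2d, 7 and 4 in Vir, and 3 and 9 in CG7358, but 1 and 11, 1 and 11, and 1 and 20 with total counts as the only scaling. These shares were under the 32%, 34% and 37.6% of all genes tested that were called with TMM scaling. The protein quality control genes had 4 higher and 0 lower in Vir and 3 higher and 0 lower in CG7358. With total counts they had 0 higher and 4 lower in Vir, and 0 higher and 3 lower in CG7358. Their median log2 fold change was 0.11 in Vir and 0.06 in CG7358, and 0.06 and 0.00 with total counts. In Ime4_dMettl14 the respiratory chain genes had 0 higher and 1 lower under both scalings.

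The transcripts of the mitochondrial genome did not pass the threshold. In Nito 0 of 14 were called by edgeR, 0 had an unadjusted p under 0.05 and DESeq2 also called 0, with a median log2 fold change of −0.06. Their share of all counts was 2.01% to 4.06% and varied within groups, for instance from 2.23% to 3.80% among the controls, so differences between groups were poorly resolved. The 2 mitochondrial ribosomal RNAs had log2 fold changes of −0.04 ± 0.17 (mt:lrRNA) and 0.32 ± 0.36 (mt:srRNA). Polyadenylated RNA was selected, which limits what these levels stand for.

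Cytosolic ribosomal protein genes, which serve translation outside the organelle, were called higher more often than lower in Fl2d, Vir, Nito and CG7358, also with total counts as the only scaling (45, 45, 28 and 24 higher and 0, 3, 10 and 2 lower). In Nito 29 of 81 rose and 8 fell (median 0.06), where 29.8% of all genes tested rose and 30.9% fell. The smallest p in Nito was that of a decrease, RpS19b (log2 fold change −0.88 ± 0.05, edgeR adjusted p = 5.73e-15). It was followed by an increase of RpS6 by 0.26 ± 0.04 (edgeR adjusted p = 3.75e-07). In Fl2d 68 rose and 0 fell (median 0.17), in Vir 59 rose and 1 fell (0.18), in CG7358 45 rose and 1 fell (0.11), and in Ime4_dMettl14 2 rose and 5 fell (−0.02). The mitochondrial ribosomal protein genes had medians of −0.04, 0.04, −0.06 and −0.00 in these 4 knockdowns. Over all genes tested, 16%, 16.7%, 18.8% and 3.01% rose. Of the 15 genes of the synthetase list 0 fell in Fl2d and in Ime4_dMettl14, 1 in Vir and 2 in CG7358, and none rose in these 4 knockdowns. Over all genes tested, 16% fell in Fl2d, 2.63% in Ime4_dMettl14, 17.3% in Vir and 18.8% in CG7358. With total counts as the only scaling, 1 of the 15 fell in Fl2d, 3 in Vir and 4 in CG7358. Of 9 translation factors 2 rose and 1 fell in each of Fl2d, Vir and CG7358, close to the share called over all genes tested, and 0 were called in Ime4_dMettl14. mEFTu1, lower in Nito, rose in Vir (0.24 ± 0.04, edgeR adjusted p = 7.01e-05), CG7358 (0.19 ± 0.04, edgeR adjusted p = 0.000747) and Fl2d (0.11 ± 0.04, edgeR adjusted p = 0.0457).

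**Figure D5:**
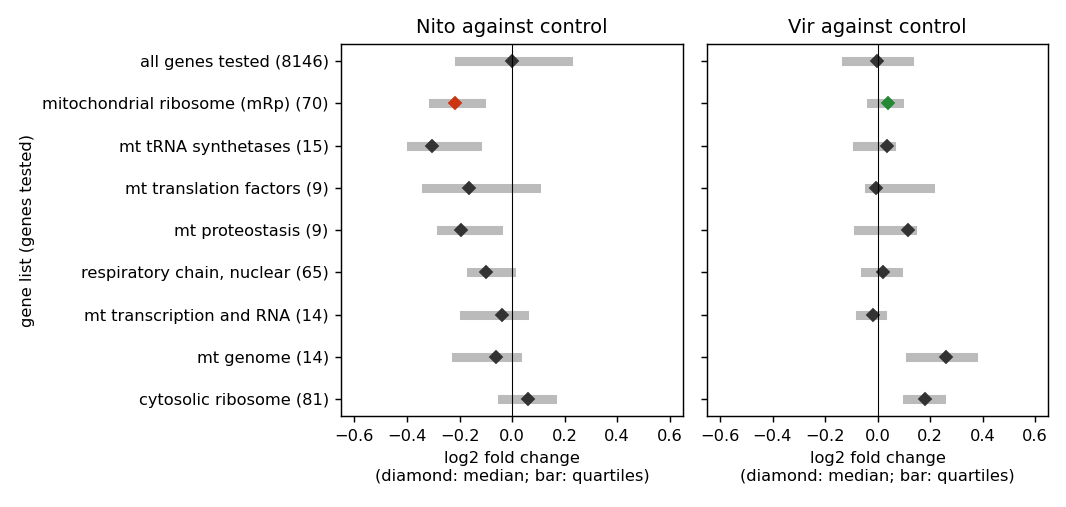
Median log2 fold change (diamonds) and quartiles (bars) of all genes tested and of 8 gene lists in Nito (left) and Vir (right) against the control, with the number of genes tested in parentheses. In Nito the mitochondrial ribosome and the mitochondrial tRNA synthetase list lie at −0.22 and −0.30 and the cytosolic ribosome at 0.06, whereas in Vir these lists lie at 0.04, 0.03 and 0.18.

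Regulators of mitochondrial gene expression were mixed. Of 9 such genes 2 rose and 1 fell in Nito, where 60.7% of all genes tested were called. srl, the fly relative of the PGC-1 coactivators, rose in all 5 knockdowns, from 162 ± 2.91 CPM in the controls to 178 ± 3.78 CPM in Nito (0.14 ± 0.03, edgeR adjusted p = 0.000642) and to 202 ± 6.84 CPM in Vir (0.32 ± 0.03, edgeR adjusted p = 3.02e-09). Max, the partner of Myc, fell in Nito from 63.5 ± 0.936 to 49.3 ± 3.05 CPM (−0.37 ± 0.04, edgeR adjusted p = 1.08e-08). E2f1 rose in Nito (0.21 ± 0.03, edgeR adjusted p = 4.06e-07), and Myc itself was called against the control only in Fl2d, of the 5 knockdowns, where it rose (log2 fold change 0.75 ± 0.18, edgeR adjusted p = 0.00753). Relations between these genes and the mitochondrial ribosomal protein genes were not tested.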

How the data were processed

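The authors deposited raw counts of reads (whole numbers without normalization) for FlyBase gene IDs in 18 files, each of a single library. Per the labels, polyadenylated RNA was sequenced from a directional kit. Alignment to BDGP6 with STAR 2.5.1b and counting with featureCounts 1.5.1 are credited to the submitters' processing notes. How strand and shared bases were handled, and the annotation release, is not given in the sources used here. Names, positions and exon lengths came from Ensembl release 115 of the same assembly name. It lacks 306 of the 17559 IDs, which held 4.83% of the counts and stayed in the tests.

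Tests used edgeR 4.0.16 under R 4.3.3: filterByExpr, TMM scaling, a robust quasi-likelihood fit of all 18 libraries with 1 coefficient per group, and Benjamini and Hochberg adjustment over all 8146 genes tested. A gene was called, and is said to have risen or fallen, at adjusted p under 0.05. The SE is the size of the log2 fold change divided by the square root of F. CPM use TMM library sizes, and RPKM divide them by exon length. The fit was checked on simulated counts. The common biological coefficient of variation was 0.0432, and replicates differed by more than sampling noise (chi-square per degree of freedom 2.33 to 15.7), so all were kept. Intervals and floors cover the spread between libraries or counting error only.

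The genes, 9 related lists (253 of 261 names matched) and tests were chosen with earlier results of these data known. Genes given with full statistics are up to 6 per direction and knockdown with the largest change, provided their average log2 CPM was 3 or more and the libraries did not overlap the controls; genes with opposite calls; the 4 highest and lowest by control RPKM; and the 4 smallest and largest p of the F test. mRpS33, mRpS29, mRpL9 and RpS6 among others were named beside them. Alternatives were DESeq2 1.42.0 as the test or for size factors, total counts as the only scaling, mitochondrially encoded genes left out, a fit of all genes without a filter, a stricter filter (3 libraries with CPM above 5), replicate numbers as blocks, a fit of only the 2 groups compared, and each library left out. Sequences were not used here, and 2 annotated genes that match the name rule, mRpS5 and mRpS34, were not analysed here.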

Additional observations from a re-analysis of the deposited data

How the results depend on the processing

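Across the 8 alternatives and the libraries left out, no called gene changed direction. Of 149 calls in 6 comparisons, 90 held throughout, 58 were lost on leaving out a library and 35 under another setting. In Nito against the control the lower count was 43 by DESeq2 and 47 to 51 under the other settings. Total counts as the only scaling, which moved the median over all genes by at most 0.06 on the log2 scale, gave 1 higher and 15 lower genes in Fl2d, 6 lower in Vir, 1 higher and 28 lower in CG7358, and 19 higher and 2 lower when Ime4_dMettl14 was set against the joint mean of Fl2d, Vir and CG7358. In Fl2d 1 gene was higher with the DESeq2 test, with mitochondrially encoded genes left out (5 lower), with no filter and with only the 2 groups compared. DESeq2 gave 0 lower genes in Vir and 1 higher in Ime4_dMettl14 against that joint mean. With no filter 1 gene was higher in Nito than in the other knockdowns. The causes were not tested.

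With each library left out in turn, higher and lower counts ranged as follows. They were 0 in both directions in Ime4_dMettl14, 0 to 2 higher and 3 to 9 lower in Fl2d, 4 to 9 and 0 to 1 in Vir, 1 to 3 and 40 to 51 in Nito, and 2 to 3 and 4 to 14 in CG7358. They were 1 to 3 higher and 42 to 54 lower in Nito against the other knockdowns, 2 to 8 higher and 3 to 6 lower in Ime4_dMettl14 against that joint mean, and 49 to 58 genes in the F test. Where this left a group with 2 libraries, the spread was still pooled over all groups. The labels give each group replicates 1 to 3. Deviations of same-numbered libraries had correlations of −0.0865 to 0.17, with 5 of 45 over 0.1, so the numbers were not taken to pair libraries. With the replicate number as a block, 1 gene was higher in Fl2d, 5 were higher in Vir, where mRpL19 was lost, and 49 were lower in Nito. The smallest changes resolved are limited by a median SE of about 0.06 on the log2 scale.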
